A study of Mus musculus with 6 samples.

Results

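Dividing and non-dividing cells gated as haematopoietic stem cells were compared within each of 6 single-cell RNA sequencing samples of mouse bone marrow. A stem cell was taken as a cell barcode with at least 5000 unique molecular identifiers (UMIs, the count of captured transcripts), at most 10% of UMIs from mitochondrially encoded genes, at least 1 UMI of Hlf, at least 2 UMIs of Hlf, Mecom and Procr together, at most 2 of Pf4, at most 2 of Car1 and 0 of Dntt. Hlf, Mecom and Procr mark haematopoietic stem cells, whereas Pf4, Car1 and Dntt mark megakaryocytic, erythroid and lymphoid cells. Of 48277 barcodes, 32782 passed the limits on depth and mitochondrial UMIs and 5497 passed the whole gate. Among these, the 1361 with at least 2 UMIs of Mki67 plus Top2a were taken as dividing, the 3400 with 0 as non-dividing, and the 736 with 1 UMI were left out of the comparison. The 8 genes of the gate and the split chose the cells, so their levels are given as a description. The fit across all genes held 7 of them, and the counts of calls are also given without them.

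The samples were 3 from wild-type (WT) mice and 3 from Txnip knock-out (Txnip-KO) mice. Bone marrow was flushed from the bones, strained, enriched and sorted by flow cytometry, and the labels do not name the sorted population, the deleted part of Txnip, the strain or the age of the animals. Whether each library of a genotype is a different mouse is not stated either, and the p-values below therefore rest on library-to-library spread that may be technical. WT 1, 2 and 3 held 236, 230 and 155 dividing and 346, 387 and 345 non-dividing cells. Txnip-KO 1, 2 and 3 held 243, 309 and 188 dividing and 765, 994 and 563 non-dividing cells. Libraries of different samples shared between 9 and 23 barcode sequences, and none of those was among the gated cells. UMIs were summed over the cells of a state in each sample, which gave 12 sums, and levels of single genes are the CPM of such a sum (its counts scaled to a common total with edgeR's TMM method) and those of summed lists are CPM by total UMIs. The level of a gene in a sum cannot tell more cells with the transcript from more transcript per cell.

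Haematopoietic stem cells renew the blood for life and spend most of their time outside the cell cycle, in a reversible resting state called quiescence. On entry into the cycle, E2F transcription factors switch on genes for DNA replication in S phase, and later the DREAM and MuvB complexes with B-MYB and FOXM1 control the genes of G2 and mitosis. MKI67 coats mitotic chromosomes and TOP2A untangles replicated DNA, and both transcripts peak late in the cycle. TXNIP belongs to the alpha-arrestins, binds the redox protein thioredoxin and restrains glucose uptake, and its gene is switched on by the glucose-sensing factor MondoA and by FoxO factors.

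Other cell cycle transcripts followed the split. After thinning every cell to 5000 UMIs, 37.3% to 44.3% of dividing cells but 0.201% to 1.16% of non-dividing cells held at least 2 UMIs of Cdk1, Birc5, Ccnb1, Ccna2 and Tpx2 together. The median dividing cell held 20 to 24 thinned UMIs of a list of 43 S phase genes, and the median non-dividing cell 5 or 6. The division was not clean for early S phase, since 9.77% to 26.4% of the non-dividing cells of a sample reached the lower quartile of the dividing cells for that list. Mki67 plus Top2a UMIs were also rarer in cells that should lack them. After thinning to 1000 UMIs, at least 1 was found in 12.1% of gated stem cells (95% exact binomial interval 11.2% to 13.0%), in 4.65% of 86 resting B cells (1.28% to 11.5%) and in 3.07% of 424 neutrophils (1.64% to 5.19%), and at least 2 in 4.64%, 1.16% and 0.236%. These intervals cover counting error only, and the medians of UMIs per cell before thinning were 8627 to 11922 in stem cells, 2806 to 4363 in B cells and 2226 to 5656 in neutrophils.

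Around the threshold, levels formed a gradient rather than a step. In cells with 0, 1, 2, 3 to 5 and 6 or more UMIs of Mki67 plus Top2a, the S phase list summed to 1550 ± 126, 2422 ± 247, 3270 ± 494, 4371 ± 244 and 5077 ± 260 CPM by total UMIs (SD, n = 6 samples). The list of 55 G2 and mitosis genes, without Mki67 and Top2a, summed to 1729 ± 44.3, 2142 ± 140, 2757 ± 267, 3817 ± 597 and 9568 ± 888 CPM. Thus the S phase list was already higher at 1 UMI, and the mitotic list rose mostly in the class of 6 or more. A list of 50 stem cell identity genes ran the other way, from 6267 ± 343 at 0 to 5364 ± 439 at 1, 5066 ± 467 at 2 and 3850 ± 481 at 6 or more.

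**Figure D1:**
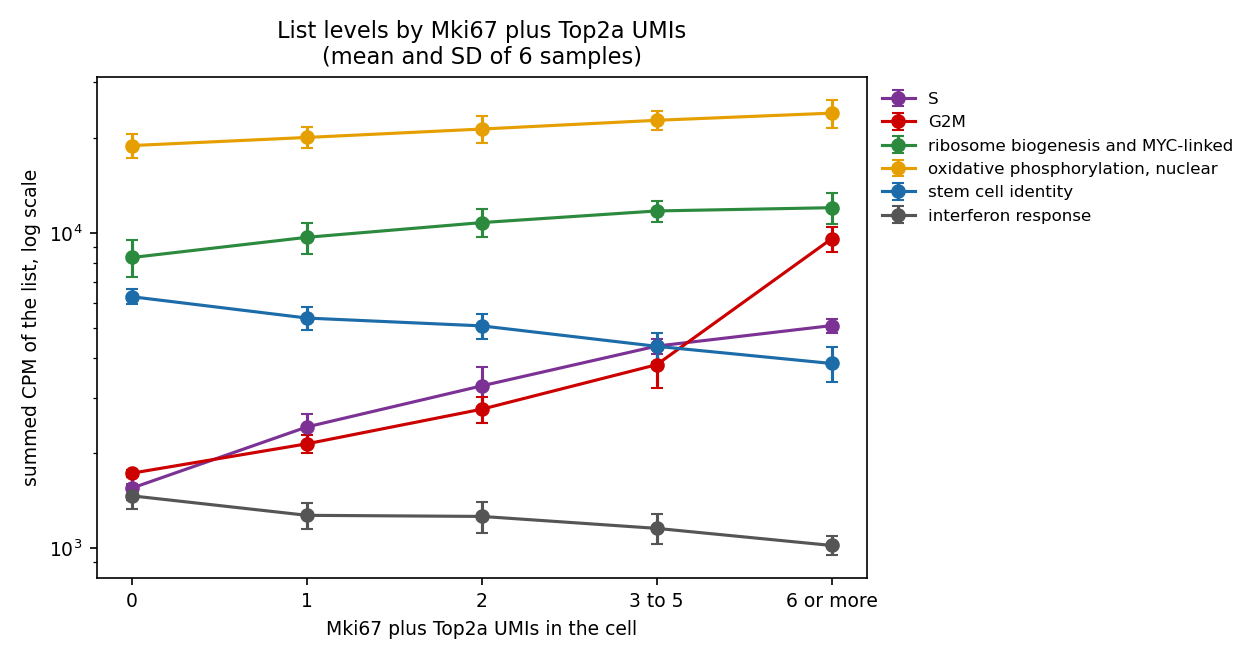
Summed level of 6 gene lists (y axis, CPM by total UMIs, log scale) in gated stem cells grouped by their Mki67 plus Top2a UMIs (x axis), as mean and SD of 6 samples. The S and G2M lists rise from the class of 0 to the class of 6 or more, and the stem cell identity and interferon lists fall.

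Dividing cells held more UMIs than non-dividing cells. The median UMIs per cell ran from 14186 to 18335 in dividing and from 7800 to 10234 in non-dividing cells of a sample, with Txnip-KO below WT in both states (15556 ± 1478 against 17957 ± 355, and 8329 ± 908 against 10158 ± 126, SD of the sample medians, n = 3). The UMI total enters the gate and the split, since a cell with more UMIs reaches 1 or 2 UMIs of a rare transcript more easily. In the gate genes, by total UMIs, Hlf stood at 506 ± 28 CPM in non-dividing and 230 ± 26.7 in dividing cells of WT, Mecom at 78.4 ± 5.24 and 35.3 ± 5.34, and Procr at 39.7 ± 3.65 and 12.3 ± 2.89. Results are therefore also given after thinning to 5000 UMIs, with the split alone or the gate and the split made on the thinned cells, and for cells of 10000 to 20000 UMIs. Scrublet marked 9.85% of dividing and 4.53% of non-dividing cells as doublets. In WT 1, 2 and 3 these shares were 9.75%, 11.3% and 12.9% of dividing and 3.76%, 2.84% and 3.48% of non-dividing cells. In Txnip-KO 1, 2 and 3 they were 7.41%, 11.3% and 6.38% and 4.71%, 4.83% and 6.04%. The marked cells were kept, and results without them are given where they differ.

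A large share of the genes tested differed between the states. Besides the genes of the gate and the split, whose direction the choice of cells can set, 3250 of 11337 genes were higher and 3189 lower in dividing cells over both genotypes (edgeR quasi-likelihood test, Benjamini-Hochberg adjusted p under 0.05). With those genes the counts were 3252 (28.7%) and 3193 (28.1%), or 6445 of 11344 in all (56.8%). Of the 3250 rises, 552 exceeded 2-fold and 255 exceeded 4-fold, against 408 and 37 of the 3189 falls. The median rise was 0.42 and the median fall -0.45 on the log2 scale, and 2684 rises and 2422 falls had the same direction in all 6 samples. The cell cycle lists held 115 of the 255 genes that rose over 4-fold. Fewer calls were made at matched depth: 3559 with the split on thinned cells, 2296 with gate and split on thinned cells and 3141 among cells of 10000 to 20000 UMIs. Each of these also used fewer cells or fewer UMIs, and a split on thinned cells also changes which cells count as dividing. DESeq2's Wald test called 4000.

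The mitotic genes had the steepest rises, and the split favours them, since Mki67 and Top2a belong to the G2 and mitosis list. Ccna2, the cyclin of S phase and G2, was at 0, 0.502 and 1.12 CPM in the non-dividing cells of WT 1, 2 and 3 and at 0, 0 and 0.624 CPM in those of Txnip-KO 1, 2 and 3. Its dividing-cell levels were 47.3, 75.5 and 53.5 CPM for the WT libraries, and for the Txnip-KO libraries 59.7, 56.97 and 52.9 CPM. The states did not overlap: 9 UMIs were found in 3400 non-dividing cells and 1345 in 1361 dividing cells, and the fitted log2 change was 7.58 ± 0.19 (SE; edgeR adjusted p = 2.49e-30); a fitted change of a gene this close to 0 depends on the prior count. Hmmr, a spindle-associated protein, changed by 7.25 ± 0.15, Nusap1, which bundles spindle microtubules, by 6.43 ± 0.10, Ube2c, the ubiquitin-conjugating enzyme of the anaphase-promoting complex, by 6.39 ± 0.10 and Birc5 (survivin), of the chromosomal passenger complex, by 6.17 ± 0.10. Cdk1, the mitotic kinase, rose from 7.85 to 12.6 CPM in non-dividing to 107 to 164 CPM in dividing cells (3.71 ± 0.07). All 55 tested genes of the G2 and mitosis list rose, with a median log2 change of 3.34, as did 39 of 40 chromosome and spindle genes, with a median of 3.50, beside a median of -0.02 over all genes tested. The exception was Pttg1 (securin), which holds sister chromatids together until anaphase and was lower by -0.28.

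S phase and replication genes rose by less, but a split on transcripts that peak late in the cycle cannot rank S phase against mitosis. All 43 S phase genes (median 1.90) and all 33 replication genes (median 1.74) were higher in dividing cells. Pcna, the sliding clamp of the replication fork, was at 104, 113 and 120 CPM in non-dividing cells of WT and 78.2, 95.4 and 92.0 in those of Txnip-KO. In dividing cells it was at 340, 364 and 376 and at 261, 260 and 279 CPM. Every dividing sum lay above every non-dividing sum, and the change was 1.64 ± 0.04 (edgeR adjusted p = 5.50e-52). Tyms, thymidylate synthase, rose by 3.11 ± 0.06, Tk1, thymidine kinase, by 5.59 ± 0.12, Gmnn (geminin, which blocks re-replication) by 2.60 ± 0.05 and Lig1, the DNA ligase of replication, by 2.52 ± 0.05. DNA repair genes followed, with 30 of 31 higher (median 1.24), Brca1 by 3.76 ± 0.14 and Brca2 by 2.15 ± 0.07. Trp53bp1, which favours end joining, was the only one lower, by -0.29.

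Chromatin genes rose with replication. Of 22 histone and chromatin assembly genes, 19 were higher and 1 lower, with a median of 1.15. H2az1, which encodes a replication-independent histone variant, went from 612 to 771 CPM in non-dividing to 1626 to 2336 CPM in dividing cells, by 1.51 ± 0.02. The linker histone gene H1f5 rose by 4.68 ± 0.05 and H2ax by 2.39 ± 0.04, while H1f0, the linker histone of resting cells, was lower by -0.24. Outside the cell cycle lists, the largest rises were Esco2 (7.04), H3c3 (6.64), Pbk (6.52), Pclaf (6.52), Neil3 (6.24), Aspm (5.94), H2ac4 (5.32), Hist1h2ap (4.25), Cit (4.03), H2ac8 (3.85), Elane (3.32) and Knstrn (3.26) on the log2 scale. Most of these act in the cycle as well: Esco2 in sister chromatid cohesion, Pclaf at the replication clamp, and Aspm and Knstrn at the spindle. H3c3, H2ac4, Hist1h2ap and H2ac8 each belong to a histone family of near-identical copies among which reads may be split, so their values are uncertain.

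Regulators of G1 moved in both directions. Of 27 tested G1 cyclins, CDK inhibitors and E2F and pocket protein genes, 16 were higher and 7 lower. The activators E2f1 (2.70) and E2f2 (3.94), the cyclin Ccne1 (3.59) and the late factors Mybl2 (4.76) and Foxm1 (4.69) rose most on the log2 scale. Cdk4 and Cdk6, the kinases of G1, rose by 0.60 ± 0.03 and 0.54 ± 0.03, whereas Ccnd2, a D-type cyclin that binds them, was lower by -0.41 ± 0.03. Among inhibitors, Cdkn1c (p57) fell and Cdkn1a (p21) rose. Cdkn1c was at 21.04, 22.3 and 26.8 CPM in non-dividing WT cells and 10.99, 12.8 and 12.5 in non-dividing Txnip-KO cells, and at 9.51, 6.98 and 12.3 and at 3.47, 4.98 and 4.72 in dividing cells. Within each sample the dividing sum was lower, with a change of -1.38 ± 0.13. Cdkn1a went from 5.74 to 14.1 CPM up to 11.5 to 22.9 CPM, a change of 0.99 ± 0.13. Rbl2 (p130), a pocket protein of resting cells, was lower by -0.46 and Rbl1 (p107) higher by 1.30.

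Promoter windows of the mitotic and of the S phase genes are shown with the short motifs they hold. Windows of 300 bases, from 250 before to 50 after the annotated start, were taken from RefSeq (mouse build GRCm38.p6) and searched on both strands for TTTGAA (the CHR element, which MuvB complexes bind), CCAAT (bound by NF-Y) and GCGGGAA or GCGCGAA (E2F-like). CHR letters were found in 31 of 47 windows of the G2 and mitosis list (66.0%), 5 of 31 of the S phase list (16.1%), 12.4% of 9033 windows of tested genes and 18.1% of all 27025 windows. E2F-like letters were found in 3 of 47 (6.38%), 18 of 31 (58.1%), 11.6% and 6.06%. CCAAT was common in both lists, at 76.6% and 71.0% against 39.6% and 37.9%. Among genes that rose over 4-fold, 44.4% of 205 windows held CHR letters, and among genes that fell 10.9% of 2524. A match describes the sequence and does not show that a factor binds. The 3 windows of each kind are shown as examples and carry no evidence for the contrast between the lists. They were picked among windows that hold the motif by the smallest p of their gene. Capitals mark every match of the 3 motifs on either strand, and matches may overlap.

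Cdca8 (borealin, of the chromosomal passenger complex; chr4:124936868-124937167, minus strand), Cdk1 (chr10:69352863-69353162, minus strand) and Cks1b (a subunit of CDK complexes; chr3:89418242-89418541, minus strand) hold a CHR match, the nearest of which lies at 13, -15 and -17 bases from the annotated start:
Cdca8: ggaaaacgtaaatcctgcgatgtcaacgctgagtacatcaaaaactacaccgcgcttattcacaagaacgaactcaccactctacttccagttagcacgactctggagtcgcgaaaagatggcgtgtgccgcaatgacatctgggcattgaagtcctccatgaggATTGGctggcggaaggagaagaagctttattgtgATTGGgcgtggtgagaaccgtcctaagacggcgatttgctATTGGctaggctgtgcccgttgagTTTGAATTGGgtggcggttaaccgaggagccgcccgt
Cdk1: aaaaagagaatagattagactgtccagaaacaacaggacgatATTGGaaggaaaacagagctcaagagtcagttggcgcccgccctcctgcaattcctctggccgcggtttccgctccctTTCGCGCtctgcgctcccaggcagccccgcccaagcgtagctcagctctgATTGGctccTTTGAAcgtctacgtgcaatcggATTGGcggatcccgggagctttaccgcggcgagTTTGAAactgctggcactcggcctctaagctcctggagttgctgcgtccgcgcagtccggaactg
Cks1b: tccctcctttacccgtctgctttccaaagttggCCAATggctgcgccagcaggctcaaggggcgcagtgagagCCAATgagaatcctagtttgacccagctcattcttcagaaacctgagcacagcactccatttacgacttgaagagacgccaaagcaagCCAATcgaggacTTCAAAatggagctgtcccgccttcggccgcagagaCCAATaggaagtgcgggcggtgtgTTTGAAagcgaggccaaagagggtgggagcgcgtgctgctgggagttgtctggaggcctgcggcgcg
Clspn (claspin, of the replication checkpoint; chr4:126556730-126557029, plus strand), Uhrf1 (which maintains DNA methylation at the fork; chr17:56303087-56303386, plus strand) and Pola1 (the catalytic subunit of DNA polymerase alpha; chrX:93632106-93632405, minus strand) hold an E2F-like match and no CHR match:
Clspn: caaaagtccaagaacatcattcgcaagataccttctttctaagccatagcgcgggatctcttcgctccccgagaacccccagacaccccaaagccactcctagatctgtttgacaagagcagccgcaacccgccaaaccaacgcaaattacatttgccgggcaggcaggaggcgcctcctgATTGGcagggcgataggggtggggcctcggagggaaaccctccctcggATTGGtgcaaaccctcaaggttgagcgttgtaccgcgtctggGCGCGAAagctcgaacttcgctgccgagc
Uhrf1: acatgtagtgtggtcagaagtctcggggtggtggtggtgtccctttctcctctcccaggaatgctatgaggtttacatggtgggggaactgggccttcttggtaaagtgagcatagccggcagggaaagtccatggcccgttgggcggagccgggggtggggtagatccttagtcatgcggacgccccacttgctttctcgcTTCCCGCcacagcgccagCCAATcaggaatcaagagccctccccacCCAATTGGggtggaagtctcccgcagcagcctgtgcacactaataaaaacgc
Pola1: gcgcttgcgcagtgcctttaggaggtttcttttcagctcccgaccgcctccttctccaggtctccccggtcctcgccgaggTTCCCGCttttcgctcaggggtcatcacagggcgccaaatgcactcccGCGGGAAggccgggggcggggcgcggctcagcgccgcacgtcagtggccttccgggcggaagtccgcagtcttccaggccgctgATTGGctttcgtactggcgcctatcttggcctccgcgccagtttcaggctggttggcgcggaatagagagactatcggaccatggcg
All 6 hold at least 1 CCAAT match, and the Cdk1 window also holds 1 E2F-like match.

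**Figure D2:**
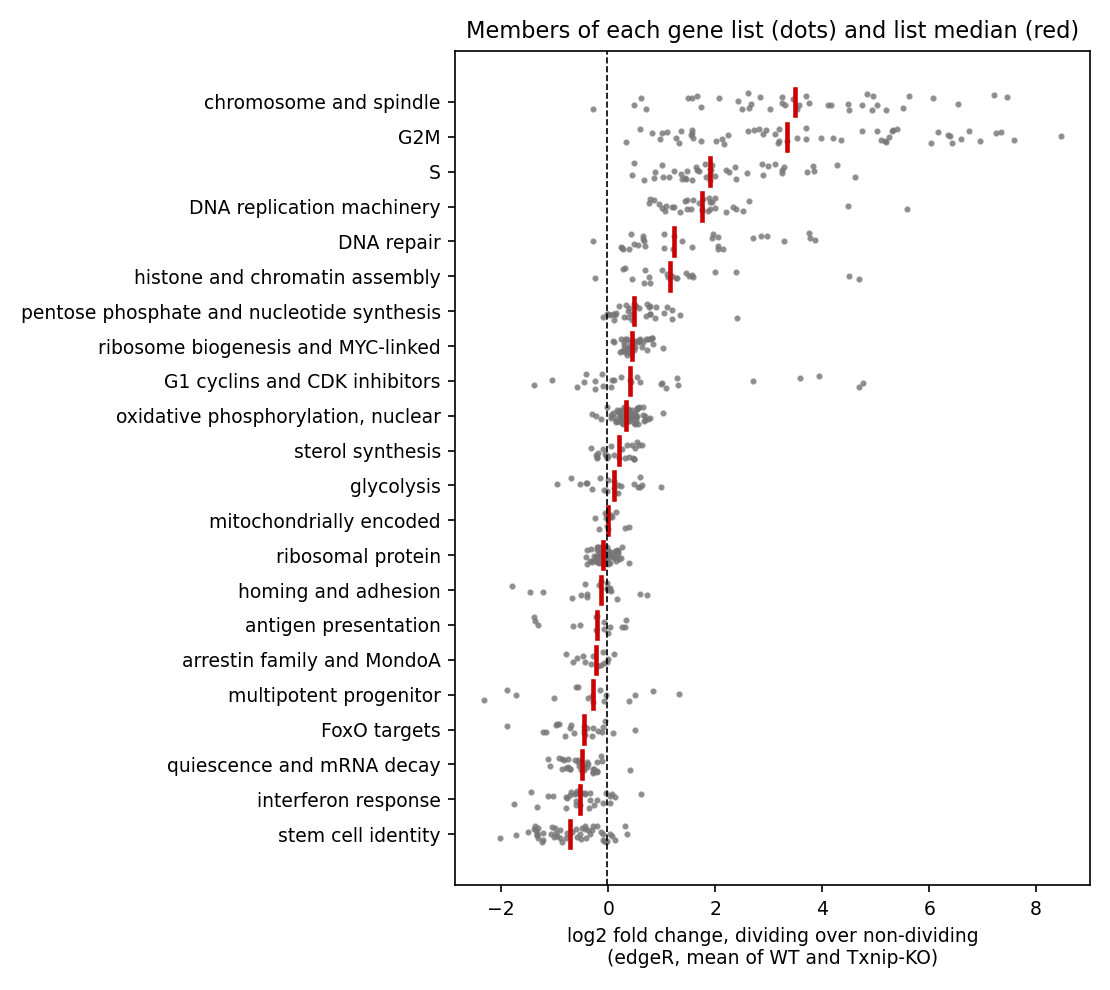
Log2 fold change of dividing over non-dividing cells (x axis) for the tested members of 22 gene lists (dots) and their median (red bar), with the median of all genes tested as a dashed line. Cell cycle lists lie to the right, the ribosome biogenesis and nuclear oxidative phosphorylation lists slightly to the right, the ribosomal protein list (median -0.10) and the mitochondrially encoded list near the dashed line, and stem cell identity, interferon, quiescence and FoxO lists to the left.

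Stem cell identity genes were lower in dividing cells. Of 50 tested members besides the gate genes, 39 were lower and 0 higher, with a median of -0.72. Ly6a, which encodes the stem cell antigen Sca-1, was at 108, 106 and 113 CPM in non-dividing WT cells and 77.3, 73.0 and 116 in non-dividing Txnip-KO cells. In dividing cells it was at 37.8, 32.4 and 34.0 and at 24.1, 23.8 and 26.3 CPM, with no overlap between the states, and the change was -1.72 ± 0.06 (edgeR adjusted p = 6.89e-39). Ifitm1, an interferon-inducible membrane protein high in stem cells, went from 814 to 1092 CPM to 343 to 440 CPM (-1.24 ± 0.03). The homeobox genes Nkx2-3 (-1.35), Hoxb5 (-1.36) and Hoxa10 (-1.34), the chromatin reader Mllt3 (-1.33), the growth signal inhibitors Socs2 (-1.31) and Cish (-1.31), Fgd5 (-1.07) and Vwf (-1.01) were lower too. Broader regulators moved less, with Meis1 at -0.50, Kit at -0.37 and Erg at -0.21. Of 16 multipotent progenitor genes 9 were lower and 4 higher (median -0.29), beside 28.1% and 28.7% of all genes tested. The stem cell list members Slamf1 (-0.10), Cd34 (-0.04), Runx1 (-0.03) and Gata2 (-0.07) did not pass the test. With the gate and split on thinned cells, 26 members were lower and 1 higher with a median of -0.44, and among cells of 10000 to 20000 UMIs 28 and 1 with a median of -0.44. Ly6a was lower there by -1.31 and -0.90.

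The largest falls came from outside that list. Wfdc17, which encodes a small protein with a whey acidic protein domain, was at 97.0, 120 and 193 CPM in non-dividing and 11.2, 31.7 and 26.8 CPM in dividing WT cells, and at 94.2, 106 and 136 and 29.3, 21.7 and 24.3 CPM in Txnip-KO cells. Its change was -2.32 ± 0.19 (edgeR adjusted p = 0.000472), and each sample fell. The chemokine genes Ccl3 and Ccl4 changed by -2.01 and -1.65, the interleukin 7 receptor Il7r by -1.90, lymphotoxin beta (Ltb) by -1.89, Tnip3 by -1.90, the nuclear receptor Rora by -1.70, Id2 by -1.67, Tcp11l2 by -1.59, Zfp467 by -1.53 and the demethylase Kdm7a by -1.52. Il7r, Ltb, Rora and Id2 are also transcripts of lymphoid cells, and they fell in both genotypes, by -1.83, -1.93, -2.00 and -1.59 in WT and by -1.97, -1.85, -1.41 and -1.76 in Txnip-KO. The list of 15 T and NK cell markers held 10 tested genes, of which 3 were lower and 1 higher over both genotypes. Over all genes tested 28.1% were lower and 28.7% higher. In WT 2 were lower and 1 higher (median -0.002), and in Txnip-KO 8 were lower and 1 higher (median -1.01); the difference between the genotypes was called lower for 1 gene and higher for 1. The list summed to 371 to 497 CPM in non-dividing and 397 to 479 CPM in dividing WT cells, and to 454 to 696 and 347 to 516 CPM in Txnip-KO cells. Its part in these falls was not tested. Under a stricter gate Id2 did not pass the test (-0.80) and Il7r changed by -1.28. Without doublets Il7r changed by -3.10, and among cells of 10000 to 20000 UMIs it did not pass (-1.84).

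**Figure D3:**
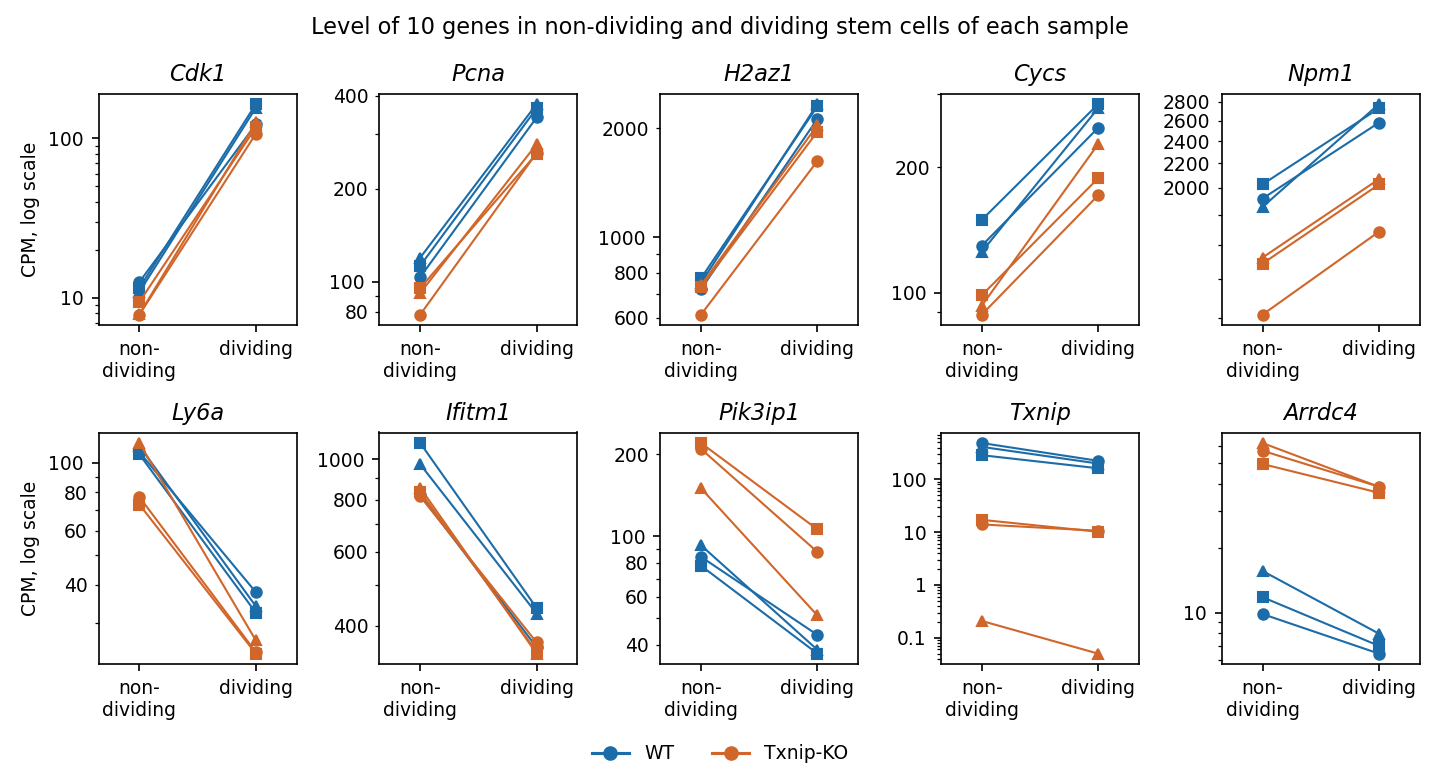
Level (y axis, CPM, log scale) of 10 genes in non-dividing and dividing cells, with a line for each sample (circle, square and triangle for replicates 1, 2 and 3). Cdk1, Pcna, H2az1, Cycs and Npm1 rise and Ly6a, Ifitm1, Pik3ip1 and Arrdc4 fall in all 6 samples; Txnip-KO 3 had 0 Txnip UMIs in dividing cells and is drawn at 0.05.

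Genes tied to quiescence and FoxO activity were lower as well. Of 33 tested quiescence and mRNA decay genes, 26 were lower and 0 higher (median -0.50), among them the antiproliferative genes Tob1 (-1.13) and Btg1 (-0.72), the mTORC1 inhibitor Ddit4 (-1.09), Tsc22d1 (-0.92), Tsc22d3 (-0.82) and the mRNA decay factors Zfp36 (-0.86) and Zfp36l2 (-0.39). Of 23 FoxO targets, 18 were lower and 1 higher (median -0.45). Pik3ip1, an inhibitor of PI3 kinase, was at 84.2, 78.1 and 92.8 CPM in non-dividing and 43.5, 37.1 and 38.3 CPM in dividing WT cells, and at 209, 220 and 150 and 87.7, 106 and 51.3 CPM in Txnip-KO cells. It fell in every sample, by -1.16 ± 0.05 (edgeR adjusted p = 5.49e-28). Trp53inp1 (-0.98), Fbxo32 (-0.93), Irs2 (-0.81) and the mitophagy kinase gene Pink1 (-0.70) were lower. Immediate early genes, which dissociation can induce, were lower or not called: Jun (-0.38) and Junb (-0.52) were lower, and Fos (-0.14) and Dusp1 (-0.26) did not pass the test. With the gate and split on thinned cells 15 and 8 members of these lists were lower, with medians of -0.40 and -0.41.

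Ribosome biogenesis and nuclear oxidative phosphorylation genes rose by small amounts. Of 38 ribosome biogenesis and MYC-linked genes, 36 were higher and 0 lower, with a median of 0.44. Npm1 (nucleophosmin) went from 1216 to 2026 CPM in non-dividing to 1683 to 2776 CPM in dividing cells, and it rose in each sample, by 0.47 ± 0.02. Ran, the GTPase of nuclear transport, rose by 1.03 ± 0.02, and nucleolin (Ncl) by 0.57 ± 0.02. Of 76 nuclear oxidative phosphorylation genes, 69 were higher and 3 lower (median 0.32). Cycs (cytochrome c) was at 130, 150 and 126 CPM in non-dividing and 249, 283 and 277 CPM in dividing WT cells, and at 88.7, 98.7 and 93.2 and 171, 188 and 227 CPM in Txnip-KO cells. Dividing sums were all above non-dividing sums, and the change was 1.02 ± 0.04 (edgeR adjusted p = 2.09e-32). The 13 mitochondrially encoded genes did not move as a group, with 3 higher and 4 lower. Cells of 10000 to 20000 UMIs gave medians of 0.16 for ribosome biogenesis, with 20 higher, and 0.19 for oxidative phosphorylation, with 54 higher and 3 lower.

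Nucleotide synthesis followed growth and cytosolic ribosomal proteins did not. Of 33 pentose phosphate and nucleotide synthesis genes, 27 were higher and 0 lower (median 0.49), led by the mitochondrial folate enzyme Mthfd2 (2.40 ± 0.14), Shmt1 (1.34), Dtymk (1.10) and Paics (0.78). Glycolysis was split, with 10 of 22 higher and 5 lower, beside 28.7% and 28.1% of all genes tested. Tpi1, Pgam1 and Ldha rose by 0.62, 0.60 and 0.56 and Aldoa was lower by -0.53. Sterol synthesis had 10 of 25 higher and 0 lower. Among 80 genes of ribosomal proteins, 55 fell and 15 rose, with a median of -0.10. Together they summed to 344013 to 378685 CPM in non-dividing and 313688 to 340302 CPM in dividing cells.

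Most interferon response genes were lower. Of 31 tested interferon response genes, 24 were lower and 2 higher, with a median of -0.53. The antiviral factors Ifi44 (-1.76), Iigp1 (-1.44), Irf7 (-1.33), Ifit1 (-1.13) and Rtp4 (-1.03) fell furthest, and Stat2 was lower by -0.35. With the gate and split on thinned cells 9 were lower and 1 higher (median -0.33). Surface genes were called in both directions, beside 28.7% higher and 28.1% lower of all genes tested. Of 15 antigen presentation genes 6 were lower and 3 higher (median -0.21), with the class I genes H2-K1 and B2m at -0.23 and -0.21. Of 19 homing and adhesion genes 9 were lower and 3 higher. The endothelial-type adhesion molecule Esam was lower by -1.22, while the chemokine receptor Cxcr4 was higher by 0.72 and the integrin Itga2b by 0.60.

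Granulocyte and monocyte progenitor transcripts were higher in dividing cells. Of 14 genes of that marker list, 12 were higher and 1 lower (median 1.23), with 12 higher in WT and 8 in Txnip-KO and 1 lower in each, and the list summed to 1632 to 2246 CPM in non-dividing and 2827 to 3545 CPM in dividing cells. Mpo, myeloperoxidase, was at 234, 176 and 246 CPM in non-dividing and 753, 842 and 949 CPM in dividing WT cells, and at 163, 266 and 278 and 703, 697 and 872 CPM in Txnip-KO cells. Each sample rose, by 1.83 ± 0.13 in the fit (edgeR adjusted p = 0.000329). Ctsg rose by 2.12, Ms4a3 by 1.59 and the mast cell and progenitor enzyme Cpa3 by 1.32. With the gate and split on thinned cells 6 of the 14 were higher and 1 lower (median 0.75). Without doublets the count was 12 and 1. A difference in cell types between the states cannot be told apart from a change with division in these sums. Mature neutrophil markers varied by library: the list summed to 19.0 to 483 CPM in non-dividing cells, and in dividing cells to between 28.6 and 3915 CPM in WT and between 21.6 and 518 CPM in Txnip-KO. S100a8 was at 587, 6.48 and 1481 CPM in dividing cells of WT 1, 2 and 3 and at 4.37, 5.27 and 14.8 CPM in their non-dividing cells. Without doublets 1 of the tested neutrophil genes was called, and S100a8 was not (2.45).

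Markers of other lineages were mixed, beside 28.7% higher and 28.1% lower of all genes tested. Of 11 tested megakaryocyte markers 2 were higher and 5 lower, with summed levels of 272 to 464 CPM in non-dividing and 190 to 447 CPM in dividing cells, and Gp6 and Tubb1 had 0 UMIs. Of 12 erythroid markers 5 were higher, among them Gata1 (1.73), and 3 lower, among them Car2 (-0.64). B lineage markers summed to 37.2 to 87.5 CPM, and the 5 tested members had a median of 0.40 and did not pass the test. Among cells of 10000 to 20000 UMIs 4 B lineage markers were lower. Dendritic markers had 3 of 10 higher and 3 lower over both genotypes. In WT 5 were higher and 3 lower (median -0.01), and in Txnip-KO 0 were higher and 4 lower (median -0.99), with the difference called lower for 3 of the 10. Without doublets none of those 3 was called for the difference. Of the rest, basophil and mast cell markers 2 of 8 higher and 1 lower, and stromal markers 2 of 2 lower, where Col3a1 had 0 UMIs. Their part in the results was not tested.

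Txnip checked the labels and also differed by state. Txnip (GRCm38 chr3:96557957-96561883, plus strand) was at 488, 287 and 413 CPM in non-dividing cells of WT 1, 2 and 3 and at 14.01, 17.1 and 0.208 CPM in those of Txnip-KO 1, 2 and 3. In dividing cells it was at 224, 162 and 199 CPM and at 10.6, 10.2 and 0 CPM. The genotypes did not overlap in either state, and Txnip-KO 3, with 1 UMI in non-dividing and 0 in dividing cells, was far below Txnip-KO 1 and 2. The change with genotype was -5.09 ± 0.69 in non-dividing and -4.64 ± 0.56 in dividing cells (edgeR adjusted p = 0.00986 and 0.00749). With the replicate number as a block, the change in non-dividing cells was -5.10 and did not pass the test (edgeR adjusted p = 0.059). In WT, dividing cells held less Txnip, by -1.01 ± 0.05 (edgeR adjusted p = 2.20e-29). That change was -0.98 with the gate and split on thinned cells and -0.60 among cells of 10000 to 20000 UMIs.

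Arrdc4, an arrestin-family relative of Txnip that is also a MondoA target, fell with division in both genotypes and was higher in Txnip-KO. It was at 9.84, 11.8 and 15.7 CPM in non-dividing and 6.42, 6.98 and 7.96 CPM in dividing WT cells, and at 57.2, 49.6 and 62.2 and 38.8, 36.4 and 38.8 CPM in Txnip-KO cells. Within the 14 tested arrestin and MondoA genes 8 were lower in dividing cells and 0 higher. By genotype, Arrdc4 was higher by 2.16 ± 0.15 in non-dividing and 2.44 ± 0.17 in dividing cells (edgeR adjusted p = 1.20e-09 and 9.09e-14). Between the genotypes the change with division differed by 0.23 ± 0.22, which was not called (edgeR adjusted p = 0.858).

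The share of dividing cells was lower in Txnip-KO as gated, and the order of the genotype means turned among cells of 10000 to 20000 UMIs. Dividing cells made up 34.8%, 32.0% and 26.5% of the gated cells of WT 1, 2 and 3. For Txnip-KO 1, 2 and 3 the shares were 20.8%, 20.6% and 22.2%. The means were 31.1% ± 4.18 and 21.2% ± 0.889 (SD, n = 3), and the samples did not overlap (two-sided exact permutation p = 0.1, the smallest that 3 against 3 samples can give). With the split on thinned cells the shares were 18.6%, 18.5% and 15.2% against 12%, 12.6% and 15%, again without overlap (exact permutation p = 0.1). With the gate as well on thinned cells they were 15.5%, 12.8% and 9.16% against 9.47%, 10.7% and 11.6%, which overlapped (means 12.5% ± 3.19 and 10.6% ± 1.07, exact permutation p = 0.5). Among cells of 10000 to 20000 UMIs the difference turned around, with 34.5%, 34.9% and 24.4% in WT and 22.8%, 41.6% and 46.4% in Txnip-KO (exact permutation p = 0.6). That range kept 181, 195 and 184 of the 346, 387 and 345 non-dividing cells of WT 1, 2 and 3. In Txnip-KO 1, 2 and 3 it kept 310, 200 and 115 of 765, 994 and 563. These shares are thus taken over non-dividing cells that were kept unequally by genotype.

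**Figure D4:**
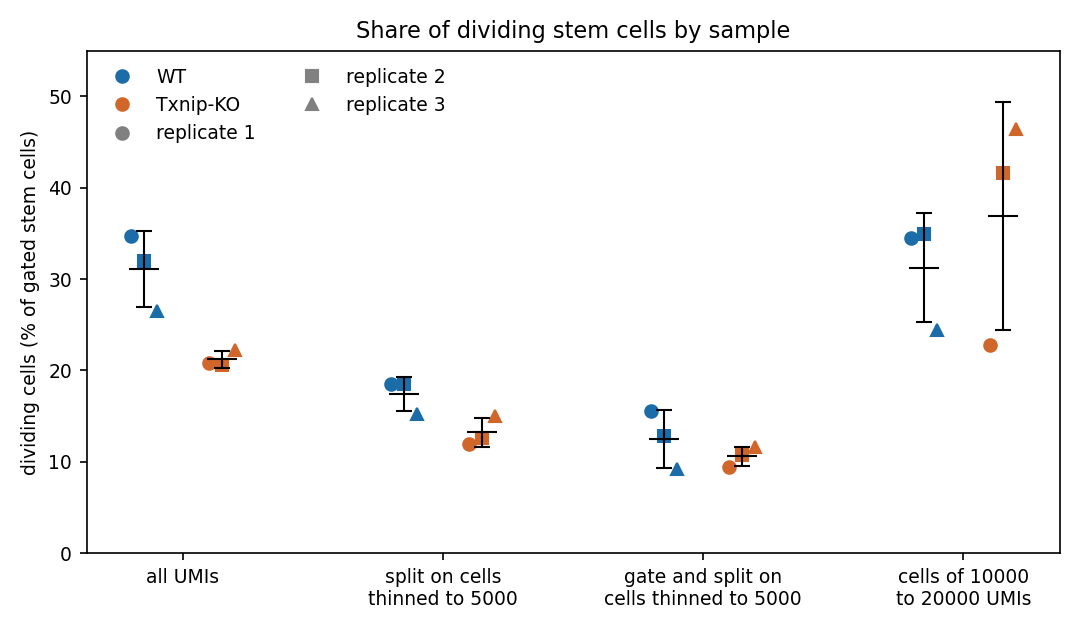
Dividing cells as a percentage of gated stem cells (y axis) in each sample, with mean and SD, for all UMIs, the split on cells thinned to 5000 UMIs, gate and split on thinned cells, and cells of 10000 to 20000 UMIs. WT lies above Txnip-KO in the first and second settings, overlaps it in the third and has the lower mean in the last.

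Within the dividing cells the balance of S phase and mitosis overlapped between the genotypes as gated. S phase genes made up 42.3%, 38.3% and 40.1% of the UMIs of the S and G2M lists in WT 1, 2 and 3. For Txnip-KO 1, 2 and 3 they made up 37.0%, 39.1% and 40.2%. The means were 40.2% ± 2.03 and 38.8% ± 1.61 (SD, n = 3; exact permutation p = 0.5). Under the stricter gate the values did not overlap, at 39.4% ± 2.42 and 34.4% ± 0.624 (n = 3, exact permutation p = 0.1). With gate and split on thinned cells the values did not overlap either, at 33.4% ± 2.53 and 29.0% ± 1.03 (exact permutation p = 0.1). That p is the smallest that 3 against 3 samples can give.

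Many genes were called for the change with division in both genotypes. In WT, 2650 genes were higher and 2147 lower in dividing cells (42.3% of 11344 in all), and the Txnip-KO fit called 2742 and 2605 (47.1%). Leaving out gate and split genes, 4791 genes were called in WT and 5341 in Txnip-KO, and 3888 were called in both, which is 81.2% of the WT calls and 72.8% of the Txnip-KO calls. Of these, 3879 had the same sign. Across 11337 genes, which are not independent replicates, Pearson's r of the log2 changes was 0.887. In WT and Txnip-KO the list medians were 3.33 and 3.66 for G2M, 1.86 and 1.93 for S phase, -0.78 and -0.62 for stem cell identity and 0.36 and 0.34 for oxidative phosphorylation.

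Few genes were called for a difference of that change. The difference, Txnip-KO change minus WT change, was called for 66 of 11344 genes (0.582%), 14 higher and 52 lower (edgeR adjusted p under 0.05). The count was 42 without WT 1, 31 without WT 3 and 31 without Txnip-KO 1. It was 41 without doublets, of which 27 were among the 66, 16 with the split on thinned cells (11 shared), 16 with gate and split on thinned cells (3 shared) and 8 among cells of 10000 to 20000 UMIs (4 shared). Without doublets the split of directions was 24 higher and 17 lower. DESeq2's Wald test called 20, of which 18 were shared.

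**Figure D5:**
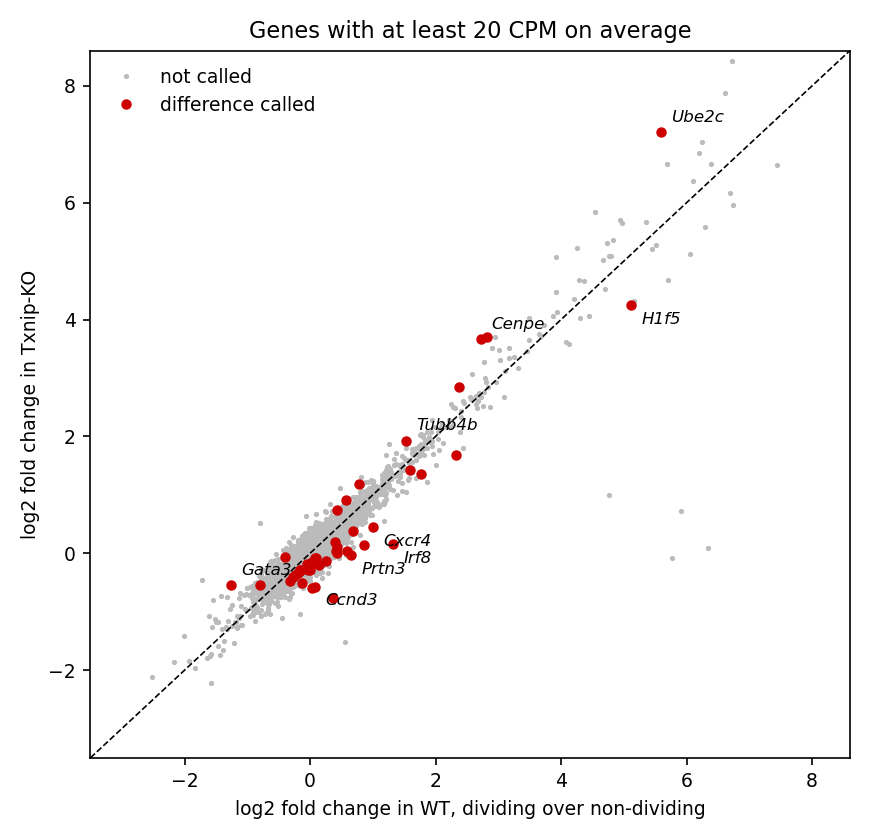
Log2 fold change of dividing over non-dividing cells in WT (x axis) and in Txnip-KO (y axis) for 6030 genes with a mean of at least 20 CPM over the 12 sums, without gate and split genes. Most genes lie along the dashed line of equal change, and the 46 red points are genes called for a difference; the grey points near 6 in WT and 0 in Txnip-KO are neutrophil genes such as S100a8, which was not called.

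By list, the lower differences held 7 of 80 ribosomal protein genes, 3 of 22 histone and chromatin assembly genes, 3 of 10 dendritic and 2 of 14 granulocyte and monocyte markers, beside 0.458% of all genes tested. None of these 4 lists held a higher difference. Irf8 is counted in both the dendritic and the granulocyte and monocyte list. Without doublets no dendritic gene of the 3 (Irf8, Ly6d and Cox6a2) was called. Cox6a2 differed by -1.88 and, without doublets, by 0.91 (edgeR adjusted p = 0.771). The histone gene H2az1 also lost its call without doublets (edgeR adjusted p = 0.343). The ribosomal protein genes Rpl30, Rps24, Rpl9, Rps7, Fau, Rpl3 and Rps13 differed by -0.15, -0.13, -0.15, -0.13, -0.13, -0.13 and -0.12. All but Rps13 were also called without doublets, and none was called with the split on thinned cells (edgeR adjusted p of 0.353 to 0.968). The linker histone H1f5 stood at 22.4, 23.8 and 13.98 CPM in non-dividing and 773, 692 and 633 CPM in dividing WT cells, and at 22.5, 20.6 and 19.4 and 495, 355 and 324 CPM in Txnip-KO cells. Non-dividing levels overlapped and dividing levels did not, and the difference was -0.87 ± 0.13 (edgeR adjusted p = 2.45e-05). H1f1, another linker histone, differed by -0.64 ± 0.15. Prtn3, proteinase 3 of myeloid granules, was at 371, 453 and 426 CPM in non-dividing and 532, 713 and 735 CPM in dividing WT cells. In Txnip-KO it was at 621, 719 and 848 and at 679, 678 and 777 CPM, with a change of 0.65 in WT and of -0.03, which did not pass the test, in Txnip-KO. The difference was -0.68 ± 0.07 (edgeR adjusted p = 3.41e-05). The dendritic and monocyte factor Irf8 differed by -1.16 ± 0.14, but by -0.16 without doublets (edgeR adjusted p = 0.906, and 3.24e-14 to 0.977 over all settings of the edgeR test). The lymphoid transcript Ms4a4b differed by -1.12 and, without doublets, by 1.56. Ly6d (-4.74), Mpeg1 (-2.66) and Klra4 (-2.50), expressed in dendritic, phagocytic and NK cells, had a mean below 20 CPM. Without doublets Mpeg1 was not called, and Ly6d and Klra4 did not pass the filter on low counts. Ccnd3, a D-type cyclin, differed by -0.65, Hk3 by -0.71, Lbp by -0.62, Cxcr4 by -0.55 and Ccl9 by -0.55.

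The higher differences held 3 of 55 genes of the G2 and mitosis list (Tubb4b, Cenpe and Ube2c), 1 of 40 chromosome and spindle genes (Smc2) and 1 of 43 S phase genes (Brip1, 1.72), beside 0.123% of all genes tested. One G2 and mitosis gene went the other way: the condensin gene Smc4 differed by -0.41 ± 0.08 (edgeR adjusted p = 0.000748, 0.00984 without doublets and 0.107 with the split on thinned cells). Tubb4b, a beta tubulin, was at 151, 190 and 165 CPM in non-dividing and 450, 537 and 471 CPM in dividing WT cells, and at 81.1, 91.2 and 88.4 and 320, 365 and 298 CPM in Txnip-KO cells. Txnip-KO was lower in both states and by less in dividing cells, and the difference of the changes was 0.40 ± 0.07 (edgeR adjusted p = 0.000281). Cenpe, a kinetochore motor, differed by 0.94 ± 0.19, with levels of 10.3 to 16.8 CPM in non-dividing WT and 5.92 to 7.70 CPM in non-dividing Txnip-KO cells and overlapping levels in dividing cells. Ube2c (1.62), Knstrn (0.89), the condensin Smc2 (0.47), Timm8a1 (0.40), the nucleolar protein Nop56 (0.35), Lars2 (0.34) and Gata3 (0.72) completed the named genes. The value of Ube2c rests on 56 UMIs in all non-dividing cells. Of these 19 named genes, Irf8, H1f5, Prtn3 and Tubb4b were called with each sample left out in turn, and the other 15 lost the call in at least 1 of the 6 cases. Prtn3 and Tubb4b were called in 15 of the 16 alternatives. With the split on thinned cells H1f5, H1f1, Prtn3, Ube2c, Cenpe and Tubb4b were called, and the rest of the 19 were not. With gate and split on thinned cells H1f1, Prtn3 and Gata3 were called, and among cells of 10000 to 20000 UMIs Cenpe and Tubb4b. In those last settings H1f5 differed by -0.61 and -0.18 (edgeR adjusted p = 0.553 and 0.993).

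Txnip-KO and WT also differed within each state. In non-dividing cells 1378 of 10987 genes were higher and 1588 lower in Txnip-KO (12.5% and 14.5%), and in dividing cells 1295 and 1439 of 10757 (25.4% in all). Without WT 2 the counts were 1819 and 1711 genes in all, and without WT 3 they were 1961 and 1807, against 2966 and 2734. Nuclear oxidative phosphorylation genes were lower in 58 and 62 of 76 and higher in 0, with medians of -0.34 and -0.36. Sterol synthesis genes were lower in 19 and 14 of 24 (medians -0.94 and -0.65), with the isoprenoid enzymes Idi1 at -1.73 and -1.36 and Fdps at -1.50 and -1.54. Oxct1, the ketone body enzyme, was at 62.3 to 85.8 CPM in non-dividing and 116 to 141 CPM in dividing WT cells and at 16.2 to 18.3 and 36.0 to 45.5 CPM in Txnip-KO cells, so the genotypes did not overlap in either state (-2.07 ± 0.13 and -1.70 ± 0.11; edgeR adjusted p = 1.67e-10 and 1.88e-14). Klf10 (1.85 and 1.56), Acot1 (1.58 and 1.34) and the mTOR-binding protein gene Deptor (1.40 and 1.15) were higher in both states. Among cell cycle lists, S phase genes were lower in 9 of 42 and 15 of 43 and higher in 1 and 1, with medians of -0.27 and -0.19. Of the G2M genes, 8 of 38 were lower and 2 higher in non-dividing cells (median -0.21). In dividing cells G2M genes were called in both directions, with 6 of 55 lower and 7 higher (median -0.01). Stem cell identity genes were higher in 13 of 49 and 15 of 47 and lower in 7 and 4.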

How the data were processed

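Single-cell RNA was read from the 3′ end of transcripts with a Chromium kit, per the labels' protocols. The deposited files hold UMI counts per gene and barcode that the authors made with Cell Ranger 6.1.1, per the file headers. CASAVA 1.8 and Seurat 2.3.4 are listed in the submitters' processing notes as well. No source used here names a genome build; 31107 of 31253 gene identifiers were found in GENCODE M21 (GRCm38), whose positions are printed. The samples held 61368478 to 80876483 UMIs in 6973 to 9063 barcodes.

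Counts of dividing and of non-dividing cells were summed per sample, which gave 12 sums. They were tested with edgeR 4.0.16 in R 4.3.3 (filterByExpr, TMM, robust quasi-likelihood), with the sample as a block, the change with division fitted within each genotype, and Benjamini-Hochberg adjustment at 0.05. Genotypes were compared within each state in fits of 6 sums. Fold changes are printed with their standard error. Shares were compared with two-sided exact permutation tests over samples. Scrublet (scanpy 1.11.5) gave doublet scores to barcodes of at least 1000 UMIs, and the highest-scoring 0.8% per 1000 barcodes were marked, 2657 of 44399; its own threshold would have marked 1418. Thinning drew UMIs without replacement from each cell. The fits were tested on simulated data.

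The members, the 31 gene lists and the tests were chosen with earlier results of these data known. Named genes were Txnip, the 12 largest rises, 12 largest rises outside cell cycle lists and 12 largest falls (mean of at least 20 CPM, same direction in all samples, no predicted genes), the 4 smallest p-values per list, the 10 largest differences per direction and the 8 largest genotype changes per direction. Further list members, and genes below 20 CPM, were named after their values were seen. Some genes that the rule names are not reported here. The 16 alternatives were the size factors and the Wald test of DESeq2 1.42.0, all genes kept whatever their counts, a block for replicate number, each sample left out, doublets removed, at least 4 UMIs for dividing cells, a stricter gate (Hlf, Mecom and Procr together at least 4 UMIs, Pf4 and Car1 at 0), and 3 settings at matched depth. Of these, cells of 10000 to 20000 UMIs and gate and split after thinning were chosen after seeing the data.

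Samples with the same replicate number deviated together in dividing cells, with correlations of 0.282, 0.402 and 0.124 across genes. The numbers may pair the samples for the genotype comparison there, although WT 3 correlated more with Txnip-KO 1 (0.143) than with Txnip-KO 3. The printed genotype values come from the fits without a block for replicate number, and values with it are given where a call changed. In non-dividing cells the same-number correlations were 0.0696, 0.133 and 0.127, each above those of all pairs with different numbers (at most 0.0373). The replicate numbers may therefore pair the samples there too. For the change with division (0.0295, 0.0485 and 0.0261, against up to 0.0418 for other pairs) the numbers were not taken to pair the samples.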

Additional observations from a re-analysis of the deposited data

Results flagged for a closer look

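The change with division differed between Txnip-KO and WT for 66 genes by the test of the difference itself. Among genes of at least 20 CPM, the log2 difference (Txnip-KO change minus WT change) was lower for Irf8 (-1.16), Ms4a4b (-1.12), H1f5 (-0.87), Hk3 (-0.71), Prtn3 (-0.68), Ccnd3 (-0.65), H1f1 (-0.64), Lbp (-0.62), Cxcr4 (-0.55) and Ccl9 (-0.55). It was higher for Ube2c (1.62), Cenpe (0.94), Knstrn (0.89), Gata3 (0.72), Smc2 (0.47), Tubb4b (0.40), Timm8a1 (0.40), Nop56 (0.35) and Lars2 (0.34). Without doublets, H1f5 (-0.77), Prtn3 (-0.63), Ccnd3 (-0.60), H1f1 (-0.69), Cenpe (0.93), Gata3 (0.78), Smc2 (0.51), Tubb4b (0.43), Nop56 (0.39) and Lars2 (0.34) were called, and the other 9 were not, among them Irf8 (-0.16), Ms4a4b (1.56) and Ube2c (1.31). With the split on thinned cells H1f5, H1f1, Prtn3, Ube2c, Cenpe and Tubb4b were called, and the others were not. The causes of these differences were not tested.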

How the results depend on the processing

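Depth, doublets and the gate moved counts more than the choice of scaling. Genes called for the mean change with division numbered 6445, and 4000 by DESeq2's Wald test, 3559 with the split on thinned cells, 3141 among cells of 10000 to 20000 UMIs and 2296 with gate and split on thinned cells. In the same order, WT gave 2488, 2245, 1870 and 1183 (2966 under the stricter gate) against 4797, and Txnip-KO 2509, 2696, 1993 and 1743 against 5347. For the genotype comparison, non-dividing cells gave 1466 among cells of 10000 to 20000 UMIs against 2966. Dividing cells gave 1654 by the Wald test, 792 with the split on thinned cells, 1532 under the stricter gate, 1246 among cells of 10000 to 20000 UMIs and 377 with gate and split on thinned cells, against 2734. With 1 sample left out, the counts ranged from 1819 to 3165 and from 1711 to 3028. Thinning leaves fewer UMIs, the range of 10000 to 20000 UMIs fewer cells, and gate and split on thinned cells fewer of both. A split on thinned cells also moves cells between the states. Only 53.4% to 67.6% of the dividing cells of a sample still held 2 Mki67 plus Top2a UMIs after thinning. Non-dividing cells went from 346 to 437 in WT 1 and from 994 to 1135 in Txnip-KO 2.

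The 66 differences between genotypes became 20 by the Wald test, 125 with no filter on low counts, 41 without doublets, 16 with the split on thinned cells, 19 under the stricter gate, 8 among cells of 10000 to 20000 UMIs and 16 with gate and split on thinned cells, and 31 to 57 with 1 sample left out. With the replicate block there were 108. The block gave 3095 genes for the genotype in dividing cells and 3214 in non-dividing cells. With it, Txnip (-5.10), Tsc22d3 (1.30) and Polr3gl (1.70) lost their call for the genotype in non-dividing cells, and S100a8 (1.95) its rise with division. The block changed no other call of a named gene. With the block the exact p of the share of dividing cells was 0.25, the smallest that 3 pairs allow in a permutation of signs.

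The difference in the share of dividing cells turned from -9.89 to 5.67 percentage points among cells of 10000 to 20000 UMIs and lay between -12.2 and -8.06 with 1 sample left out. That range of UMIs kept a smaller part of the non-dividing cells of Txnip-KO than of WT. Irf8 in dividing cells turned to -0.35 in that range of depth, Prtn3 to -0.074 with gate and split on thinned cells and S100a8 to -0.76 under the stricter gate, and the difference of Ms4a4b to 1.56 without doublets and 0.76 with the split on thinned cells. The cause was not tested.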
